A study of Homo sapiens with 2 samples.

Results

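The genes described here are 9 genes of MHC class I antigen presentation: the heavy chain genes HLA-B, HLA-C and HLA-E, the light chain gene B2M, the transporter genes TAP1 and TAP2, the tapasin gene TAPBP, and the immunoproteasome genes PSMB8 and PSMB9. They were chosen by name from 12918 genes, after transcripts had been matched to gene symbols and their values summed per gene. All 9 were in the table and all 9 passed the filter of 1 FPKM in at least 1 library (FPKM is the fragment count scaled to transcript length and to the mapped total). The cells were MDA-MB-231, a human line grown from a breast cancer of the triple-negative type. One group was transfected with a Smart Silencer, which combines siRNAs with antisense oligonucleotides, against the long noncoding RNA THAP7-AS1, and the control group with si-NC. RNA was taken at 48 h, with 1 library per group, so no difference below has a replicate check and none was tested. The column headed si-v was taken as the silencer library because the other column is named for si-NC, and every direction depends on this. THAP7-AS1 itself was not analysed here.

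As background, class I molecules show peptides from inside the cell to cytotoxic T cells and natural killer cells. Proteasomes cut proteins into peptides, and in cells exposed to interferon the subunits encoded by PSMB8 and PSMB9 replace constitutive ones. The TAP1 and TAP2 proteins pump the peptides into the endoplasmic reticulum, where tapasin bridges the pump to a heavy chain paired with beta-2-microglobulin. Tumour cells often present less than normal cells do, and many of these genes respond to interferons through interferon-stimulated response elements (ISRE) and to NF-kB.

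Promoter stretches are shown first because most of these genes have a window with interferon or NF-kB motifs, which the choice of genes did not use. The letters searched were picked after the sequences had been seen, so the shares of other windows beside them are a description only. RefSeq promoter windows (GRCh38.p14, 250 bases before to 50 after a start) were matched by symbol for 8 of the 9 genes, with 10 windows in all; the windows play no part in the expression values, which rest on hg19. The motifs searched on both strands were the ISRE core GAAANNGAA, the class I form of the ISRE GAAGTGAAA, and the NF-kB forms GGGATTCNC, GGGACTTTC and GGGATTTCC. Stretches run 5′ to 3′ on the gene's strand, matches are in capitals, overlapping matches merge, and a match is a description of letters, not a bound site. The stretches are HLA-B at chr6:31357311-31357370 (minus strand), HLA-C at chr6:31272220-31272279 (minus), B2M at chr15:44711358-44711416 (plus), TAP1 at chr6:32853753-32853852 (minus), TAP2 at chr6:32838774-32838812 (minus), TAPBP at chr6:33314069-33314148 (minus) and PSMB8 at chr6:32844023-32844065 (minus).
HLA-B: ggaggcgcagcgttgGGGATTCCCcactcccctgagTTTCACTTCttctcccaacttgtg
HLA-C: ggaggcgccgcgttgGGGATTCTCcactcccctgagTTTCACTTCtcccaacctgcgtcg
B2M: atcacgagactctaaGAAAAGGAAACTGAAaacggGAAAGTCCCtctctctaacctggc
TAP1: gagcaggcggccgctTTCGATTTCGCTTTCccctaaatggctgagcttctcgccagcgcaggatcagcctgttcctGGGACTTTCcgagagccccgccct
TAP2: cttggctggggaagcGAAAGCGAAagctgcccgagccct
TAPBP: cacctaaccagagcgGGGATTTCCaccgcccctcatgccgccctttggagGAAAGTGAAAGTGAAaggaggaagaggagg
PSMB8: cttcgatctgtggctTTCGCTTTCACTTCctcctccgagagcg

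The ISRE core was found in the windows of 5 members (B2M, TAP1, TAP2, TAPBP and PSMB8), against 8.11% of 35116 promoter windows. The class I form was found in 3 members, HLA-B, HLA-C and PSMB8, against 0.510% of all windows; in PSMB8 it overlaps the core. The base after the match is C in HLA-B and HLA-C and G in PSMB8, and a longer form searched at first, which ended in that C, matched HLA-B and HLA-C only. In HLA-B and HLA-C it follows the NF-kB form GGGATTCNC of class I enhancer A, which 0.934% of all windows held. Other NF-kB forms lay in B2M and TAP1 (GGGACTTTC, 0.387% of all windows) and in TAPBP (GGGATTTCC, 0.393%). Either ISRE form was thus present in 7 of the 8 genes with a window, and 1 of the 3 NF-kB forms in 5. The short letters CCAAT, bound by NFY, were in 5 of the 8 genes against 34.6% of all windows, and TGACG, bound by CREB and ATF factors, in 6 against 24.6%. PSMB8 has 2 windows: the start of transcript PSMB8-202 coincides with that of the window holding the ISRE core, while PSMB8-201 starts 24 bases from the start of the other window, where the ISRE letters did not occur. The window of PSMB9 held CCAAT and TGACG but none of the ISRE and NF-kB forms. TAP1 also has 2 windows, with RefSeq starts 488 and 1431 bases from that of PSMB9, which points the other way, and the ISRE and NF-kB letters are in the nearer one only. TAP1-201, the only TAP1 transcript in the table, starts 274 bases upstream of the nearer RefSeq start, so the ISRE letters lie 141 to 155 bases downstream of its own start.

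HLA-B, which encodes a classical heavy chain, had the highest level of the 9 genes, at 78.8 FPKM in the si-NC library and 108 FPKM in the si-v library. HLA-E, whose product is read by the CD94/NKG2 receptors of natural killer cells, came next at 46.6 and 61.9 FPKM. PSMB8, which encodes a catalytic subunit of the immunoproteasome, stood at 31.0 and 53.6 FPKM. These are also the members with the largest differences upward. TAPBP stood at 28.7 and 28.4 FPKM, and TAP2 at 19.6 and 23.6 FPKM. B2M was at 15.8 and 13.3 FPKM and TAP1 at 12.7 and 15 FPKM, so these neighbours changed places between the libraries. PSMB9, the partner subunit of PSMB8, stood at 6.42 and 6.70 FPKM, and HLA-C at 6.36 and 5.97 FPKM. The last pair cannot be ordered, since about 55 to 108 fragments stand behind each of these values.

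**Figure D1:**
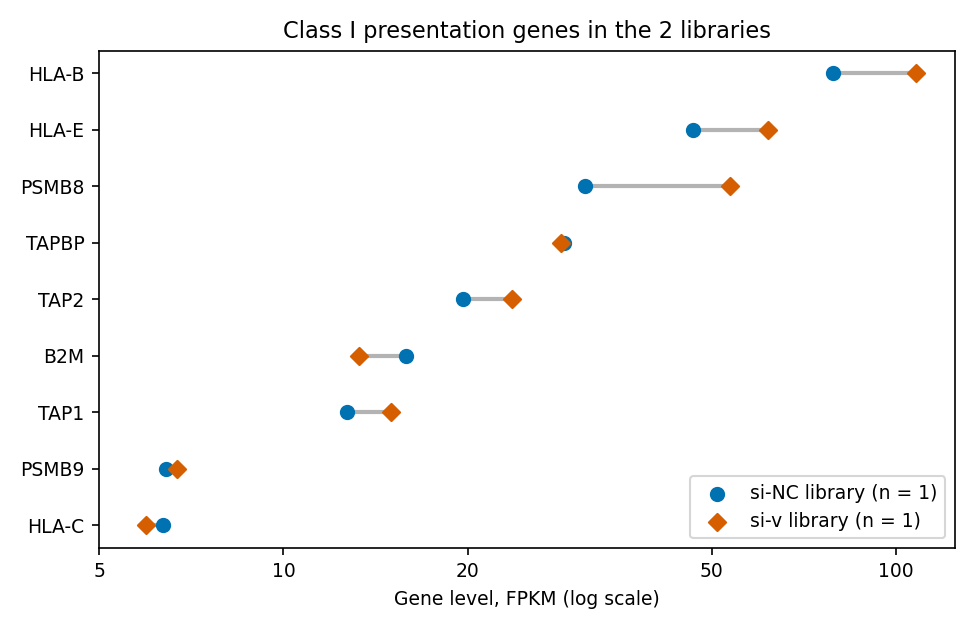
Level of each of the 9 genes in FPKM (log scale) in the si-NC library (circles) and the si-v library (diamonds), with 1 library per group and no error bar. HLA-B is highest at 78.8 and 108 FPKM, PSMB8 has the widest gap at 31.0 and 53.6 FPKM, and HLA-C is at 6.36 and 5.97 FPKM.

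Differences are given as log2((si-v + 1)/(si-NC + 1)) in FPKM, on which low genes are understated. At 2-fold, 0 of the 9 genes were higher and 0 were lower, where 2.37% of 11046 genes were higher and 2.49% lower. At 1.5-fold, 1 of 9 was higher, PSMB8, against 9.82% of all genes, and 0 were lower, against 8.91%. Of the 9 ratios 6 were above 0 and 3 below, where 50.4% of all genes were above. The median was log2 0.22 for the 9 genes and 0.00 for all genes, whose middle 50% ran from -0.27 to 0.30. The members thus lay mostly within the ordinary spread of genes between these 2 libraries, whose SD was log2 0.49. Once the trend of the ratio with GC content and length over all genes was removed, the median of the 9 genes was 0.09, and HLA-B had 0.26, HLA-E 0.30, TAP1 0.09, HLA-C -0.28 and B2M -0.13. PSMB8 then had 0.62 and was still the highest, while PSMB9 turned to -0.12. These are bulk libraries, in which fewer cells expressing a gene and less RNA per cell cannot be told apart.

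Among the heavy chains HLA-B had a log2 ratio of 0.45, above those of 84.4% of all genes, and HLA-E had 0.40, above 81.5%. Their estimated fragments, 1265 and 1835 for HLA-B and 1330 and 1921 for HLA-E (si-NC, then si-v), gave 95% counting intervals of log2 0.31 to 0.52 and 0.31 to 0.51. HLA-C had a ratio of -0.08 on 107 and 108 fragments, with an interval of -0.51 to 0.29 that includes 0. Such intervals are exact Clopper-Pearson intervals of the ratio of fragments without a pseudocount; they cover counting error only, and leave out differences between cultures and the division of reads among transcripts. HLA-B was 12.4 times HLA-C in FPKM in the si-NC library and 18.1 times in the si-v library, a log2 difference of 0.55 with a counting interval of 0.15 to 0.95. Here and below, intervals for the change in a ratio of 2 genes are not exact. They are 95% normal approximations around the FPKM value, with a standard error from the estimated fragments. Over the 9 genes, 5 of the Clopper-Pearson intervals lay above 0, 2 below and 2 included 0. The same share over all genes was not computed, so these counts do not set the members apart. The intervals of the reference genes ACTB (-0.29 to -0.10) and GAPDH (-0.61 to -0.50) also left out 0. The ratio of HLA-B to HLA-E was nearly level, at 1.69 and 1.74 (log2 difference 0.04, interval -0.10 to 0.19).

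The heavy chain genes are close in sequence, which bears on how reads are divided among them. Of all stretches of 75 bases in the reference transcript HLA-B-249, 0% occur in a transcript of another gene; the share is 1.98% for HLA-C-201 and 2.02% for HLA-E-201. These are reference alleles, and the alleles of the cell line were not compared.

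B2M encodes the light chain that every class I heavy chain pairs with, and it had the lowest ratio of the 9 genes, log2 -0.24. Its level needs caution: HLA-B was 4.97 times B2M in the si-NC library and 8.12 times in the si-v library. The coding transcript B2M-215 was not analysed here, and the listed transcripts B2M-202, B2M-204 and B2M-208 share 89.9%, 56.3% and 100% of their stretches of 75 bases with B2M transcripts not analysed here. Within the listed transcripts the libraries differed in composition. B2M-204 stood at 12.3 FPKM in the si-NC library and 4.47 FPKM in the si-v library (log2 -1.28). B2M-208 stood at 1.07 and 6.11 FPKM (log2 1.78), and B2M-202 at 2.49 and 2.72 FPKM. B2M-204 therefore made up 77.5% of the gene's FPKM in the si-NC library and 33.6% in the si-v library. In estimated fragments, 268 and 200, the log2 ratio of the gene was -0.54 with an interval of -0.81 to -0.27, a larger difference than in summed FPKM.

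The transporter genes TAP1 and TAP2 encode the subunits that form 1 pump. TAP1, with 1 listed transcript, had a log2 ratio of 0.22 and about 413 and 530 fragments (interval 0.05 to 0.43). TAP2 had a ratio of 0.25 on about 1225 and 1601 fragments (interval 0.16 to 0.37). TAP2 was 1.54 times TAP1 in the si-NC library and 1.57 times in the si-v library, a log2 difference of 0.03 (interval -0.19 to 0.24). Nearly all TAP2 signal was on TAP2-201, at 19.3 and 22.7 FPKM. Of its stretches, 35.5% also occur in the gene model AL669918.1, which overlaps TAP2 on the same strand.

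TAPBP encodes tapasin, and in summed FPKM it was the most level member, with a log2 ratio of -0.02. Its most abundant transcript TAPBP-234 stood at 25.9 FPKM in the si-NC library and 22.0 FPKM in the si-v library (log2 -0.23). Shorter transcripts offset this in the sum: TAPBP-237 stood at 0.765 and 2.69 FPKM and TAPBP-236 at 0.833 and 2.0 FPKM. These rest on few fragments, 6 and 24 for TAPBP-237 and 7 and 19 for TAPBP-236. In fragments of the whole gene, 1104 and 1063, the log2 ratio was -0.17 (interval -0.30 to -0.05). TAPBP was thus slightly lower by fragments and level by FPKM.

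PSMB8 had the largest difference of the 9 genes, log2 0.77, higher than 95% of all genes. It rested on about 387 and 724 fragments, with an interval of 0.60 to 0.96. PSMB8-202, whose start carries the ISRE letters shown above, stood at 29.3 and 51.6 FPKM and made up 94.5% and 96.3% of the gene. PSMB8-201, from the other start, stood at 1.69 and 2.0 FPKM on 25 and 32 fragments, and PSMB8-203 was listed at 0 in both libraries. Of the exonic bases of PSMB8, 20.6% overlap the antisense gene PSMB8-AS1, and without a known strand setting reads of the 2 genes could not be told apart. PSMB9, which is induced together with PSMB8 by interferons, had a log2 ratio of 0.05 on 55 and 62 fragments, with an interval of -0.49 to 0.60. The upper end of the PSMB9 interval and the lower end of the PSMB8 interval are both 0.60 when rounded, and unrounded the 2 intervals just miss each other. No interval was computed for the difference between these 2 genes.

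**Figure D2:**
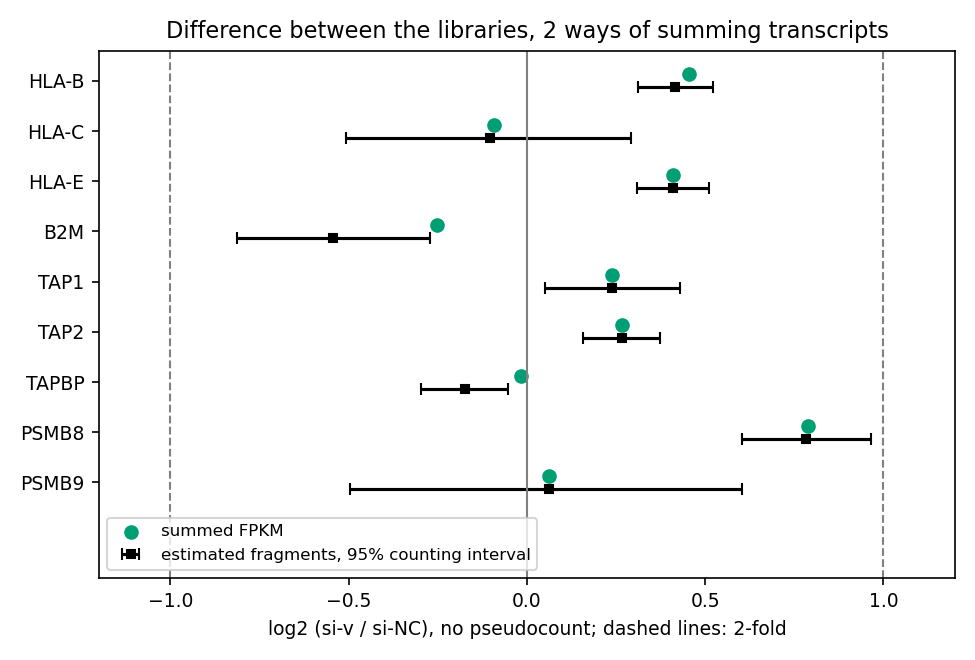
log2 ratio of the si-v over the si-NC library for each gene without a pseudocount, from summed FPKM (circles) and from estimated fragments (squares, with 95% counting intervals that leave out variation between cultures). PSMB8 lies highest with an interval of 0.60 to 0.96, the intervals of HLA-C and PSMB9 include 0, and for B2M and TAPBP fragments give a lower value than FPKM.

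**Figure D3:**
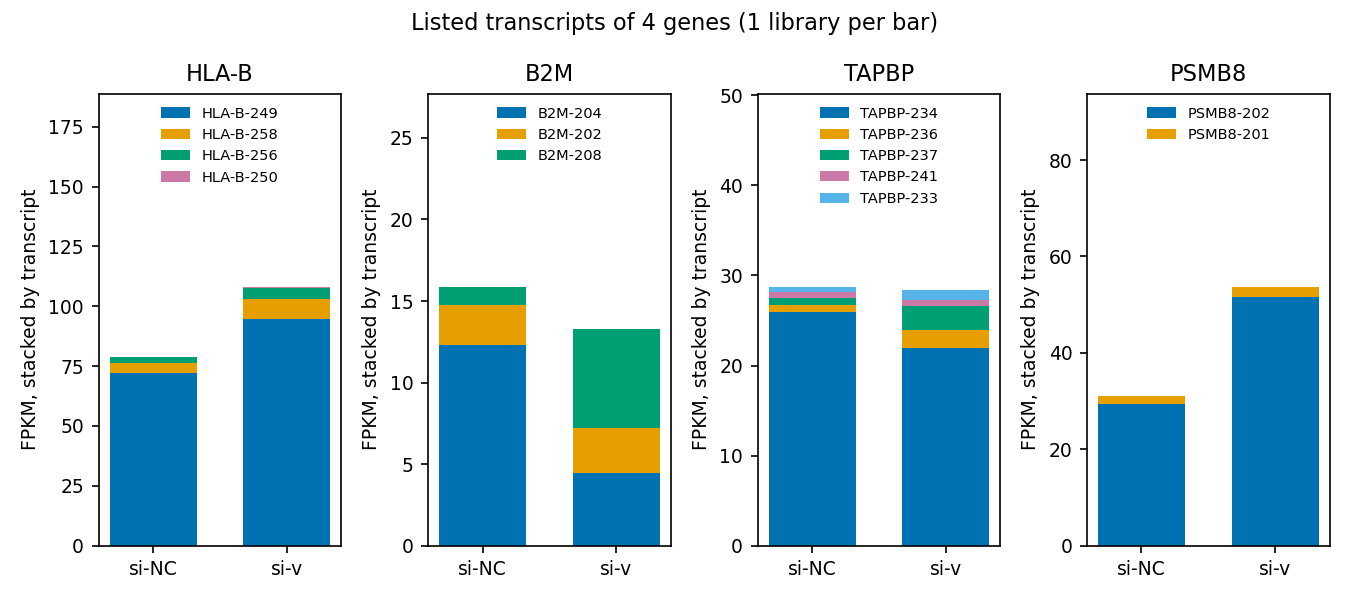
FPKM of the listed transcripts of HLA-B, B2M, TAPBP and PSMB8, stacked for each library (1 library per bar, axes differ between genes). In HLA-B and PSMB8 a single transcript makes up most of both bars, while in B2M the share of B2M-204 is 77.5% for si-NC and 33.6% for si-v.

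The members had 23 listed transcripts, and 11 of them reached 5 FPKM in at least 1 library. Of these 11, 8 had a ratio above 0 and 3 below, where 51.5% of all 10836 transcripts of that level were above. Among the 11, B2M-208 was 2-fold higher, against 12.4% of all, and B2M-204 was 2-fold lower, against 10.6%, so these shares are near the background. HLA-B-249 carried most of HLA-B, at 72.1 and 94.8 FPKM, and the 240-base model HLA-B-258, at 4.14 and 8.33 FPKM, rests on 11 and 24 fragments.

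The constitutive counterparts of the immunoproteasome subunits, which sit in the standard proteasome, were all higher in the si-v library by similar small amounts. PSMB5 stood at 19.7 and 24.8 FPKM (log2 0.32), PSMB6 at 49.9 and 61.3 FPKM (0.29) and PSMB7 at 132 and 164 FPKM (0.32). PSMB8 was 1.58 times its counterpart PSMB5 in the si-NC library and 2.16 times in the si-v library (log2 difference 0.46, interval 0.17 to 0.74). PSMB9 was 0.129 and 0.109 times PSMB6, and PSMB10, the remaining immunoproteasome subunit, was 0.0366 and 0.0317 times PSMB7; the counting intervals of both of these differences include 0, at -0.78 to 0.32 and -0.70 to 0.28. Among the 3 inducible subunits PSMB8 alone was above its counterpart in the level summed over listed transcripts. Of the annotated coding transcripts, 3 of 3 entered the sum for PSMB8 and 1 of 3 for PSMB9. For PSMB10, 1 transcript entered, where 2 coding ones are annotated. The sums for PSMB9 and PSMB10 may thus leave out part of these genes. PSMB10 stood at 4.81 and 5.20 FPKM, and the proteasome activator genes PSME1 at 74.2 and 66.9, PSME2 at 16.9 and 19.4 and PSME3 at 59.0 and 61.0 FPKM (log2 0.05, but -0.24 by fragments). The assembly factor gene POMP stood at 74.2 and 82.7 FPKM, and of this list of 5 genes 0 reached 1.5-fold.

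The loading chaperone list, of chaperones, folding enzymes and trimming enzymes of the endoplasmic reticulum, had a median log2 ratio of 0.29. This was over the 8 of 9 genes past the filter, with 7 above 0. CALR, the calreticulin of the loading complex, stood at 499 and 641 FPKM (0.36), CANX (calnexin) at 138 and 179 FPKM (0.38) and PDIA3, the oxidoreductase bound to tapasin, at 64.4 and 70.5 FPKM (0.13). HSPA5 had a ratio of 0.46 and PDIA6 one of 0.21. UGGT1, the glucosyltransferase that returns unfolded glycoproteins to calreticulin, was the only gene of this list past 2-fold, at 9.84 and 21.5 FPKM (1.06). The peptide trimming genes were low: ERAP1 stood at 7.96 and 8.79 FPKM and ERAP2 at 3.45 and 2.13 FPKM. ERAP2 differed far more in fragments, 150 and 33, a log2 ratio of -2.29 (interval -2.90 to -1.75) against -0.51 in FPKM. TAPBPL, which encodes a relative of tapasin, was at 0.283 FPKM in the si-NC library and listed at 0 in the si-v library.

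Other class I and class I-like genes gave no shared direction. HLA-F stood at 1.48 and 0.501 FPKM on 19 and 8 fragments. HFE, the iron regulator, stood at 2.60 and 7.03 FPKM (log2 1.16), yet by fragments, 127 and 100, its log2 ratio was -0.47. The long transcript HFE-207 stood at 2.13 and 0.130 FPKM, and the shorter HFE-201 was listed at 0 in the si-NC library and stood at 4.30 FPKM in the si-v library. FCGRT was at 5.16 and 5.01 FPKM and MR1 at 0.140 and 0.172 FPKM. The stress ligands read by the receptor NKG2D had a median of -0.13 over 6 genes, from MICB at 22.2 and 12.7 FPKM (-0.76) and RAET1E at 1.79 and 0.781 FPKM (-0.65) to MICA at 41.5 and 41.8 FPKM and RAET1G at 1.56 and 1.77 FPKM.

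Of 14 genes that act in class I transcription, 9 had a ratio above 0 and 5 below, with a median of log2 0.08. NLRC5, the class I transactivator, was the only one past 2-fold, at 1.76 FPKM in the si-NC library and 4.65 FPKM in the si-v library (1.03). Its transcripts differed in direction: NLRC5-215 stood at 0.183 and 2.55 FPKM, on 7 and 108 fragments, and the longest, NLRC5-201, at 0.867 and 0.479 FPKM, on 65 and 39 fragments. The NF-kB subunit gene RELA was at 16.6 and 9.82 FPKM (-0.70) and NFKB1 was level at 10.2 and 10.3 FPKM. The interferon regulatory factor genes of this list had ratios of 0.16 for IRF1, 0.23 for IRF2 and 0.45 for IRF3. The RFX subunit genes gave -0.02 for RFX5, 0.05 for RFXAP and 0.36 for RFXANK. The NFY subunit genes gave -0.08 for NFYA, 0.48 for NFYB and -0.12 for NFYC, and CREB1 and ATF1 gave -0.46 and 0.12. Fragments gave another picture for some of these genes, with log2 ratios of 0.14 for CREB1, 0.01 for NFYB and -0.01 for IRF2, and 0.93 for NLRC5, which is under 2-fold.

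Genes of interferon receptors and signalling had a median of log2 -0.31, with 10 of 12 below 0, whereas interferon-induced genes had a median of 0.26, with 16 of 22 above 0. At the ends of the signalling list were STAT2 (0.47) and TYK2 (0.38) above, and the interferon regulatory factor gene IRF9 (-0.96) and SOCS1 (-0.56) below. At the ends of the induced list were IFI27 (0.86) and IFI6 (0.83) above, and GBP3 (-0.93) and IFITM1 (-0.53) below. IFI27 was near the floor, at 0.607 and 1.91 FPKM, and passed the filter in the si-v library only. It rested on about 5 and 15 fragments, with an interval of -0.07 to 3.28 that includes 0. Corrected for GC content and length, the induced list had a median of 0.20 and the signalling list one of -0.21, beside 0.09 for the 9 class I genes. Some genes stand in more than 1 list, and the difference between the lists was not tested.

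**Figure D4:**
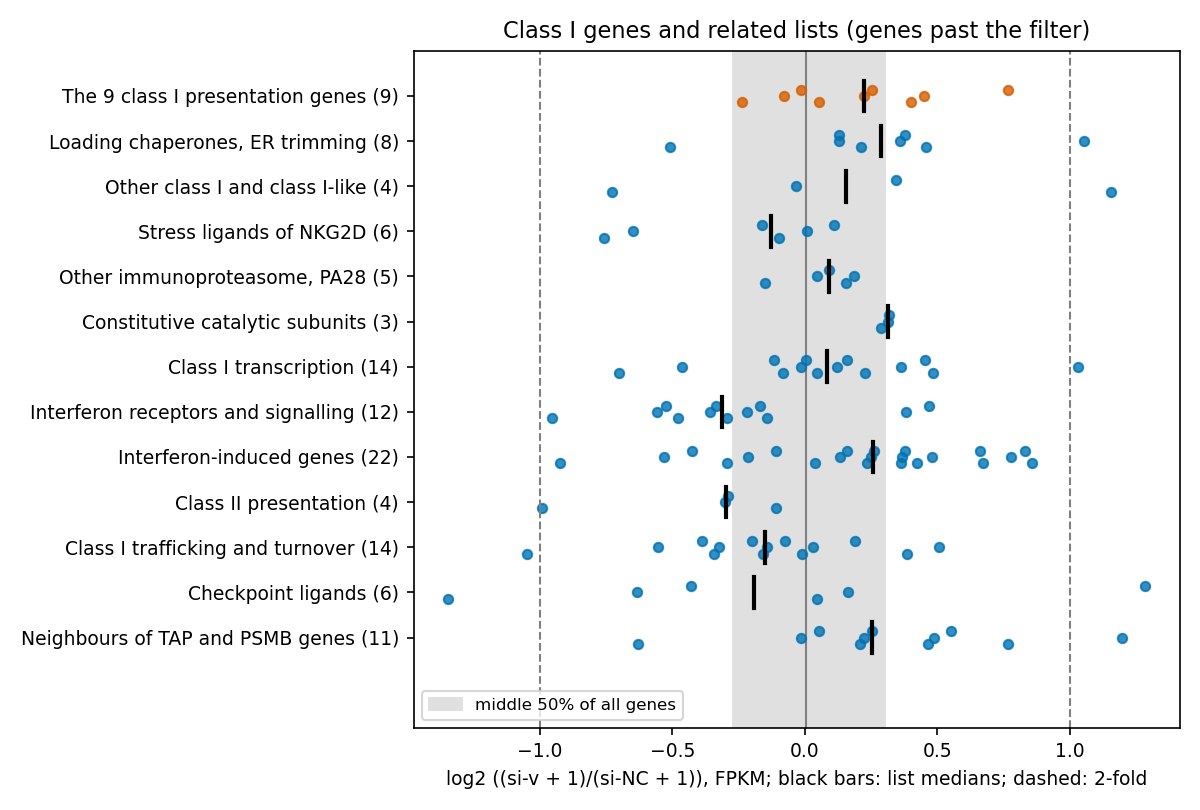
log2 ratio of each gene past the filter in the 9 class I presentation genes (orange) and in related lists (blue), with list medians as black bars, the middle 50% of all genes as a grey band from -0.27 to 0.30, and the number of genes in brackets; the last list holds TAP1, TAP2, PSMB8, PSMB9 and TAPBP too. The 9 genes have a median of 0.22 and stay inside the dashed 2-fold lines, and the signalling list has a median of -0.31.

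Class II presentation genes were near the floor of the table: 4 of 9 passed the filter, and all 4 had a ratio below 0, where 50.4% of all genes were above. This count depends on the filter, which CIITA passed in the si-NC library only, on 9 and 6 fragments. Without the filter the list median was -0.11, against -0.30 with it, and the genes left out went both ways. CD74, the invariant chain, was the exception in level at 41.0 and 33.3 FPKM (-0.29); CTSS stood at 3.62 and 1.32 FPKM (-0.99), HLA-DMA at 1.49 and 1.31 FPKM and the class II transactivator gene CIITA at 1.26 and 0.835 FPKM. Genes of class I trafficking and turnover had a median of -0.15 over 14 genes. At its ends were BCAP31 at 89.5 and 128 FPKM (0.51), VCP at 51.5 and 67.7 FPKM (0.39), the signal peptide peptidase gene HM13 at 97.1 and 46.4 FPKM (-1.05) and TMEM129 at 3.65 and 2.17 FPKM (-0.55). HM13 makes the signal peptide fragments that HLA-E presents, and it lay opposite in direction to HLA-E. By fragments the log2 ratio of HM13 was -0.85, which is under 2-fold, and a link between these 2 genes was not tested. Checkpoint ligands spread widely, from CD276 at 8.42 and 2.71 FPKM (-1.35) and CD47 at 36.1 and 22.9 FPKM (-0.63, but -1.14 by fragments) to NECTIN2 at 51.7 and 58.1 FPKM (0.16) and CD274, the gene of PD-L1, at 4.39 and 12.1 FPKM (1.28).

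All members but B2M, which is on chromosome 15, lie in the MHC on chromosome 6, so they were set beside their neighbours. Of 151 coding genes annotated from HLA-F to DAXX, 86 passed the filter, 8 of them members. The 78 other genes had a median log2 ratio of 0.20, with 53 above 0, and the 8 members one of 0.24, with 6 above 0. The genes beside the TAP and PSMB cluster and TAPBP included RXRB at 2.46 and 6.95 FPKM (1.2) and VPS52 at 8.24 and 4.97 FPKM (-0.63). The genes of the region were rich in GC, with a median of 56.4% for the other genes and 56.8% for the members, against 48.8% over all genes tested. With the trend of the ratio with GC content and length removed, the medians were 0.08 for the other genes and 0.17 for the 8 members. Above 0 were then 5 of the 8 members, 43 of the 78 other genes and 5645 of the 11046 genes tested. The part of GC content in the differences was not tested further.

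**Figure D5:**
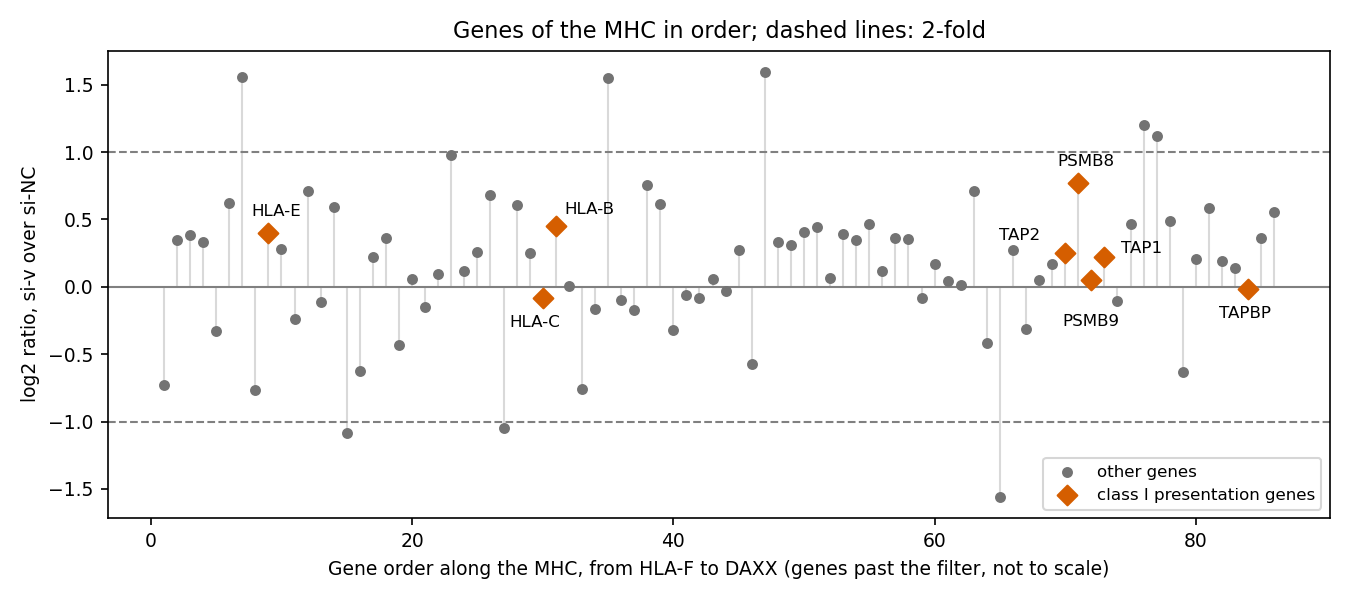
log2 ratio (si-v over si-NC) of the 86 genes of the MHC past the filter, in order from HLA-F to DAXX and not to scale, with the 8 class I presentation genes of the region as diamonds. The members lie among their neighbours, with medians of 0.24 and 0.20, and none of the 8 crosses the dashed 2-fold lines.

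The libraries held about 7830000 (si-NC) and 8340000 (si-v) fragments on the listed transcripts, estimated from the smallest steps in the values. All 9 markers of the cell line were present, 5 with a ratio above 0 and 4 below, from CAV1 at 118 and 83.7 FPKM (-0.49) to KRT7 at 131 and 184 FPKM (0.49), and VIM stood at 344 and 373 FPKM. Of the luminal receptor genes, ESR1 was listed at 0 in both libraries and ERBB2 stood at 4.65 and 17.4 FPKM (1.71). Of markers of T cells, B cells, natural killer cells, leukocytes and endothelium, 0 were listed, and myeloid markers summed to 3.14 and 3.73 FPKM, most of it LYZ. ACTB stood at 96.1 and 93.9 FPKM (-0.03) but GAPDH at 313 and 219 FPKM (-0.51), a difference as large as that of HLA-B in the other direction. THAP7, the neighbour of the targeted gene, stood at 1.5 and 1.6 FPKM.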

How the data were processed

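RNA-seq was made from 1 MDA-MB-231 library per group. The submitters' processing notes name cutadapt, HISAT2 2.0.5, StringTie and the build hg19; annotation release, strand setting and filters were not given in the sources used here. The authors' deposited table gives a value per transcript, read as FPKM from the values since its header names no unit.

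Transcripts were matched without version to GENCODE release 29 (99.5% of 39605 matched), which served for symbols, lengths, GC content and gene order only, and FPKM were summed per gene (pandas 2.3.3, numpy 2.4.6). Of 12918 genes, 11046 had 1 FPKM or more in a library and were kept, and a pseudocount of 1 FPKM entered each log2 ratio. Fragments were estimated as FPKM times length over the worth of 1 fragment, so they are approximate. That worth was the peak of low values in genes with 1 listed transcript (91.1 and 83.8). The 95% Clopper-Pearson intervals (scipy 1.17.1) of single genes cover counting error only. Intervals for the change in a ratio of 2 genes cover the same error, as normal approximations around the FPKM value. The calculations were run on simulated data with a smaller spread than the real ratios and no division of reads among transcripts. This checks the code and not the results. Alternatives were other pseudocounts, scalings, filters, thresholds, the most abundant transcript, fragments per gene, and removal of the GC content and length trend.

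The members and lists were chosen with earlier results of these data known. Named genes were the 9 members, their transcripts of at least 5 FPKM, all measured genes of the lists of loading chaperones, class I-like genes, immunoproteasome and PA28, constitutive subunits and class I transcription, the 2 highest and 2 lowest of other lists, and ACTB, GAPDH and THAP7. Other transcripts, markers and motifs, and the MHC gene order, were picked after values or sequences were seen. Some genes of the lists are not reported here by name.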

Additional observations from a re-analysis of the deposited data

How the results depend on the processing

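With a single library per group no replicate could be left out. No paired analysis was possible because each group has 1 library. Of 63 recomputed member ratios, 58 stayed within the counting interval's half-width of the reported value. HLA-B, HLA-E, TAP1, TAP2 and PSMB8 were above 0 and HLA-C, B2M and TAPBP below 0 in all 8 settings; PSMB9 was above 0 in 6 and below in 2. Corrected for GC content and length, HLA-B had 0.26, TAPBP -0.15 and the 9 genes a median of 0.09. Read from the most abundant transcript, B2M had -1.28, so 1 member was then 2-fold lower, and TAPBP -0.23 (-0.17 by fragments). At 1.5-fold, 1 member was higher. The loading chaperone median was 0.21 with no filter and 0.36 with a filter of 5 FPKM. PSMB10 was 0.0484 times PSMB7 by most abundant transcript in the si-NC library, and 0.0495 and 0.0410 times by fragments. Over all genes, a pseudocount of 0.1 put 486 past 2-fold upward and 473 downward, one of 5 put 72 and 67, and the most abundant transcript 683 and 706; past 1.5-fold they were 1085 and 984. A smaller pseudocount or threshold lets more genes pass by construction; otherwise the cause was not tested.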
